A study of Mus musculus with 6 samples.

Results

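The genes described here are 10 phosphatases of the MAP kinases: Ptpn5, Ptpn7, Ptprr, Dusp1, Dusp4, Dusp5, Dusp6, Dusp7, Dusp9 and Dusp10. They were chosen by name, with the difference between Plk2 null and wild-type cells on these same 6 arrays already known, so the differences below are a description and carry no test. They are 10 of the 20145 genes that the array's transcript accessions could be matched to, and they were measured by 11 of 55681 probes. All 10 were among the 14417 named genes that passed the filter on weak signal, which asked for 3 of 6 arrays with the probe well above background.

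Whole-genome Agilent arrays with a single colour (Cy3) were hybridised with RNA of primary mammary epithelial cells, prepared from dissociated mammary glands of female 129sv/C57Bl6 mice aged 8 weeks. The groups were 3 samples from Plk2 null (Plk2 -/-) mice and 3 samples from wild-type mice. Plk2 is a polo-like serine/threonine kinase, and the comparison asks which transcripts differ where it is missing. The labels do not name the exons removed or say whether each sample came from its own animal, so a p-value below measures only the spread between these samples.

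MAP kinases are switched on by phosphorylation of a threonine and a tyrosine in their activation loop, and the phosphatases described here remove those phosphates. Ptpn5, Ptpn7 and Ptprr are classical tyrosine phosphatases that dock on MAP kinases through a kinase interaction motif and clear the tyrosine. The Dusp proteins are dual-specificity phosphatases that clear both residues. Dusp1, Dusp4 and Dusp5 are nuclear and are induced by growth factors or stress, Dusp6, Dusp7 and Dusp9 are cytoplasmic and prefer ERK, and Dusp10 prefers JNK and p38. Several are transcribed in response to the kinases they switch off and so form negative feedback loops.

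On the null arrays 51.2% to 54.7% of probes were well above background, and on the wild-type arrays 50.2% to 52.2%. Pearson correlations were 0.975 to 0.989 within the null group, 0.987 to 0.990 within the wild-type group and 0.960 to 0.980 between the groups. They cover only probes that passed the filter on weak signal, with the brightest probe standing for a named gene. All null arrays lay in row 2 of their slide and all wild-type arrays in row 1, so position and genotype cannot be told apart. The probe for Plk2 itself read -6.97, -7.20 and -7.00 in null samples, not well above background on any of them, against 2.18, 2.22 and 2.38 in wild-type samples, on the scale given below. It was lower by at least 149.8-fold relative to wild-type cells (adjusted p = 3.61e-06 by limma). The labels do not tell whether that probe falls within the deletion. Markers shared by luminal cells, mostly keratins and claudins (9 of 9), and markers of basal cells (11 of 11) were well above background on all 6 arrays. Levels below are log2 of the scanner's processed signal minus the 75th percentile of the same array, so that 0 is a fairly bright gene, and they can be compared between arrays but not between probes.

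Among the 10 phosphatases, Ptpn5 stood apart with a level about 89.5-fold lower in null cells, and Dusp6 lay 1.95-fold higher. The null signals of Ptpn5 were near the bottom of the scale, so the size of its fold is uncertain. It was 14.1-fold with another background correction and 15.2-fold in the authors' deposited table. Dusp10 was 1.56-fold lower with groups that barely separated, and the other 7 had overlapping groups. Groups that do not overlap were common among all named genes and unmatched probes tested. They were found in 19.6% with the null higher and in 12% with the null lower. Differences were positive for 5 genes and negative for 5. In the limma fit over all 24609 entries (a named gene, or a probe with no matched gene), 1 of the 10, Ptpn5, lay past an adjusted p of 0.05, where 0.565% of all entries did; the genes were selected on this contrast and nothing is read from that count. The median difference of the 10 genes was -0.10 on the log2 scale and that of all entries 0.03, and the median absolute difference was 0.35 for the 10 genes and 0.29 for all entries.

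**Figure D1:**
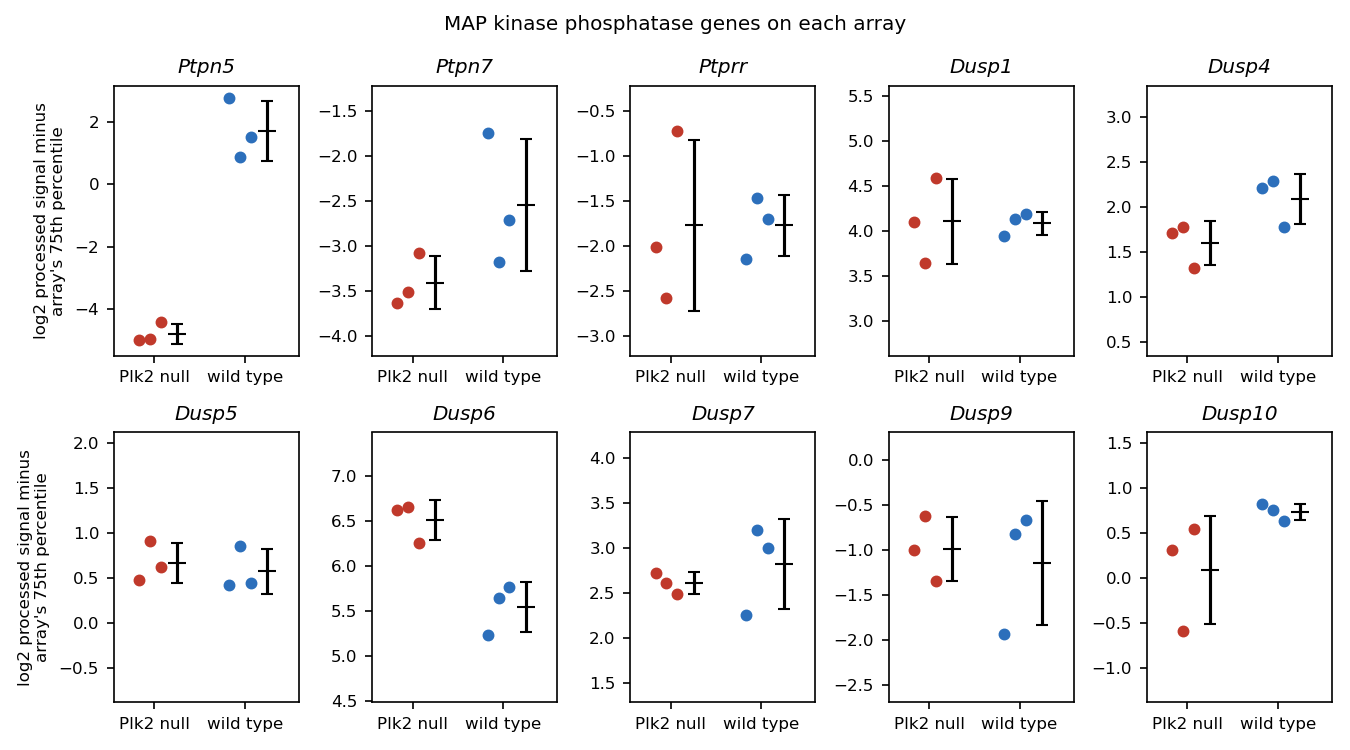
Level of each MAP kinase phosphatase gene (log2 processed signal minus the array's 75th percentile, a separate vertical scale for each gene) in 3 Plk2 null samples (red, left) and 3 wild-type samples (blue, right), in the order of replicate 1 to 3; crosses with bars give the mean and SD. The null points lie apart from the wild-type points for Ptpn5, Dusp6 and Dusp10, with a gap of 5.28, 0.50 and 0.09 log2 units. Of all entries tested, 19.6% had groups apart with the null higher and 12% with the null lower.

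Ptpn5, also called STEP, is the striatal-enriched tyrosine phosphatase, best known from neurons, where it acts on ERK, p38, the kinases Fyn and Pyk2 and glutamate receptor subunits. Its probe, designed to transcript NM_013643, read -4.99, -4.94 and -4.41 in null samples 1, 2 and 3, against 2.74, 0.87 and 1.49 in wild-type samples 1, 2 and 3. The null values were close together and far below every wild-type value, while the wild-type values spread over 1.88 log2 units. In the scanner's own units the processed signals were 9.58, 9.20 and 11.3 in null samples, against 1724, 453.1 and 793.3 in wild-type samples. The null signals thus lay near the bottom of the scale, and the probe passed the scanner's background flag in null samples 2 and 3 but not in null sample 1, and in 3 of 3 wild-type samples. Mean levels were -4.78 ± 0.32 in null cells and 1.70 ± 0.96 in wild-type cells (SD, n = 3 each), a difference of -6.48 with a standard error of 0.47.

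The size of the Ptpn5 difference varied with the processing and with the samples included, and its direction did not. Background correction by normexp with an offset of 50 gave a difference of -3.82, or 14.1-fold lower in null cells. In the authors' deposited table, whose columns share a common distribution, the wild-type level was 15.2 times the null level, and Ptpn5 was the 1 gene of the 10 that passed both of the authors' thresholds there (p under 0.01 and a fold over 1.4). Scaling to the spike-in controls gave 74.2-fold, leaving out wild-type sample 1 gave 62.3-fold and leaving out wild-type sample 2 gave 119.4-fold. In every one of these the null samples were the lower group.

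The genomic windows around the annotated Ptpn5 transcript starts follow, shown because Ptpn5 had the widest difference of the 10 genes. They come from RefSeq on the GRCm38.p6 build, run 5′ to 3′ along the gene's strand and hold 250 bases before and 50 bases after each start. The upstream start is at chr7:47133635-47133934 and the downstream start at chr7:47132549-47132848, both on the minus strand.
Ptpn5 upstream start: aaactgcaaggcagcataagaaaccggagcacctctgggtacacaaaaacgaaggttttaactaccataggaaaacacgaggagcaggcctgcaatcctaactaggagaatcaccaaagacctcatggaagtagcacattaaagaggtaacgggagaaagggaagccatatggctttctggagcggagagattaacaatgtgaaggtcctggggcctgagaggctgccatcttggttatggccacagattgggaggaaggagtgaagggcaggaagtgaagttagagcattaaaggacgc
Ptpn5 downstream start: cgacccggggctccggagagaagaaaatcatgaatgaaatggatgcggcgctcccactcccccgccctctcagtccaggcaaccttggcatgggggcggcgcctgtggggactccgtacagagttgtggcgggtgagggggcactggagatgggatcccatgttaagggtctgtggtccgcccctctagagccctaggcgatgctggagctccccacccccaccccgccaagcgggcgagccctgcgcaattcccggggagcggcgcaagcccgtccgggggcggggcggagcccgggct
The downstream window was 69% G and C with 24 CpG dinucleotides, the upstream window 48.7% with 6, and the median over 32851 windows of 27025 genes was 52.7%. Neither window held the letters of any of 5 motifs searched on both strands: the cAMP response element TGACGTCA, the AP-1 motif TGANTCA, the TATA box TATAAA, the ETS core CCGGAA and the CArG box of serum response factor. Which of these starts is used in these cells was not measured.

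Ptpn7, or HePTP, is a close relative of Ptpn5 that is best known from blood cells, where it holds back ERK and p38. It read -3.63, -3.51 and -3.07 in null samples 1, 2 and 3, against -1.74, -3.17 and -2.70 in wild-type samples 1, 2 and 3. Wild-type sample 1 was the highest of the 6, and null sample 3 was above wild-type sample 2, so the groups overlapped. Means were -3.40 ± 0.29 in null cells and -2.54 ± 0.73 in wild-type cells (SD, n = 3 each), a difference of -0.86 with a standard error of 0.37. The difference was -0.46 without wild-type sample 1, -0.43 with normexp and -0.41 with the authors' deposited table. On none of the 6 arrays was a second Ptpn7 probe well above background.

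Ptprr is a receptor-type member of the same class that binds ERK. Its levels were -2.01, -2.58 and -0.73 in null samples 1, 2 and 3, against -2.14, -1.47 and -1.71 in wild-type samples 1, 2 and 3. The null samples held both the lowest and the highest value, with null sample 3 above all others, and the group means were both -1.77. Their SDs were 0.95 in null cells and 0.34 in wild-type cells (n = 3 each), and the difference was 0.40 without null sample 2 and -0.52 without null sample 3. The 3 tyrosine phosphatases with a kinase interaction motif thus differed widely in how they related to genotype, with a difference of -6.48 for Ptpn5, -0.86 for Ptpn7 and 0.00 for Ptprr.

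Because Ptpn7 is known from blood cells and Ptpn5 from neurons, markers of these cells were read from the same arrays. Lymphocyte markers had negative differences in 19 of 19 tested genes, with a median difference of -2.60. None of the 19 passed an adjusted p of 0.05 in the limma fit, and 18 lay under an unadjusted p of 0.05. Their summed level, in multiples of the 75th percentile signal, was 6.79, 6.67 and 16.5 in null samples 1, 2 and 3, against 64.1, 39.6 and 37.4 in wild-type samples 1, 2 and 3. None of the 20 lymphocyte markers was below background throughout, since 14 were well above it on all 6 arrays and the others on some. Wild-type sample 1 was the highest of the 6 in the summed level of these markers, in Ptpn5 and in Ptpn7. Null sample 3 was the highest of the null samples in that sum and in both genes. In the sum, wild-type sample 2 was above wild-type sample 3, and null sample 1 above null sample 2. Both genes had the opposite order in each of these pairs. Neuronal and Schwann cell markers had a median difference of -0.49, were negative in 7 of 11 tested genes and had summed levels of 29.0, 26.5 and 27.5 in null samples, against 35.1, 31.5 and 31.4 in wild-type samples; Syt1, a synaptic vesicle gene, exceeded background on none of the 6 arrays. The part of either cell type in the levels of Ptpn5 and Ptpn7 was not tested. In bulk RNA of this kind, fewer cells of a type and less RNA per cell cannot be told apart.

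Dusp1, or MKP-1, is an immediate-early phosphatase of the nucleus that acts on p38, JNK and ERK. Its levels were 4.09, 3.64 and 4.58 in null samples 1, 2 and 3, against 3.94, 4.12 and 4.19 in wild-type samples 1, 2 and 3. The null samples again held both the lowest and the highest value and spread over 0.95 log2 units, against 0.25 units among wild-type samples. Means were 4.10 ± 0.47 in null cells and 4.08 ± 0.13 in wild-type cells (SD, n = 3 each), a difference of 0.02 with a standard error of 0.25. It was 0.25 without null sample 2 and -0.22 without null sample 3.

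Dusp4, or MKP-2, is a nuclear phosphatase induced by ERK signalling. It read 1.71, 1.78 and 1.32 in null samples 1, 2 and 3, against 2.22, 2.29 and 1.78 in wild-type samples 1, 2 and 3. The groups met at 1.78, where null sample 2 and wild-type sample 3 were equal to 2 decimals, and the other wild-type samples lay above all null samples. Means were 1.60 ± 0.25 in null cells and 2.10 ± 0.28 in wild-type cells (SD, n = 3 each), a difference of -0.49 with a standard error of 0.21. Over the 6 fits that each left out 1 sample it ran from -0.65 to -0.35.

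Dusp5 is a nuclear phosphatase selective for ERK. Its levels were 0.47, 0.90 and 0.62 in null samples 1, 2 and 3, against 0.42, 0.86 and 0.44 in wild-type samples 1, 2 and 3. Sample 2 was the highest within each group, and the groups overlapped over most of their range. Means were 0.66 ± 0.22 in null cells and 0.57 ± 0.25 in wild-type cells (SD, n = 3 each), a difference of 0.09 with a standard error of 0.19. Over the 6 fits that each left out 1 sample it ran from -0.03, without null sample 2, to 0.24, without wild-type sample 2.

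The windows of Dusp1 and Dusp5 are shown because they were, with the 2 overlapping windows of Ptprr, the ones among the 13 windows of the 8 genes with an entry that held a motif searched for. Capitals mark the match. The Dusp1 window is at chr17:26508423-26508722 on the minus strand and the Dusp5 window at chr19:53528895-53529194 on the plus strand, from RefSeq on GRCm38.p6.
Dusp1: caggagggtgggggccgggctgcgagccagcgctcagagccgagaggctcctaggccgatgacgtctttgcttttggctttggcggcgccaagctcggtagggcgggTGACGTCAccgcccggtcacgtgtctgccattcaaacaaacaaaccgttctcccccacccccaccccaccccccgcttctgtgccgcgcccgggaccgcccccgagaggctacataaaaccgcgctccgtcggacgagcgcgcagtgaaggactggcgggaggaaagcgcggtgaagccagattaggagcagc
Dusp5: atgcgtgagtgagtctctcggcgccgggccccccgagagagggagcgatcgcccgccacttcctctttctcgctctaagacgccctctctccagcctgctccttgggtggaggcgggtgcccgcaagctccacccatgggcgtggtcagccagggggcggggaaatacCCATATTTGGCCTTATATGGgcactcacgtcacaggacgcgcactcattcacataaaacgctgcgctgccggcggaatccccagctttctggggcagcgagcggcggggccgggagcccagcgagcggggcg
Dusp1 held a cAMP response element at -143 relative to its start, a motif found in 1.79% of the 32851 windows. Dusp5 held 2 adjoining CArG boxes, at -82 and -72, a motif found in 1.63% of windows. The AP-1 motif was present in 7.81% of windows, the TATA box in 13.6% and the ETS core in 14.9%, and none of the 13 windows held one. These matches describe letters and not binding, which these arrays do not measure.

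Dusp6, or MKP-3, is the cytoplasmic phosphatase selective for ERK, and its transcript is widely used as a readout of ERK activity. It read 6.62, 6.65 and 6.26 in null samples 1, 2 and 3, against 5.24, 5.64 and 5.76 in wild-type samples 1, 2 and 3. Every null sample lay above every wild-type sample, with 0.50 log2 units between the lowest null and the highest wild-type value. Means were 6.51 ± 0.22 in null cells and 5.55 ± 0.27 in wild-type cells (SD, n = 3 each), a difference of 0.96 with a standard error of 0.20. The difference was between 0.81 and 1.23 in each of 18 alternative ways of processing or of leaving out a sample. Some of these ways, such as the filters and the replicate block, left it unchanged by construction. In the authors' deposited table the ratio of wild type over null was 0.558 for Dusp6, which did not pass the authors' p threshold.

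The Dusp6 window is shown as that of the gene with the widest positive difference of the 10. It is at chr10:99262981-99263280 on the plus strand, from RefSeq on GRCm38.p6.
Dusp6: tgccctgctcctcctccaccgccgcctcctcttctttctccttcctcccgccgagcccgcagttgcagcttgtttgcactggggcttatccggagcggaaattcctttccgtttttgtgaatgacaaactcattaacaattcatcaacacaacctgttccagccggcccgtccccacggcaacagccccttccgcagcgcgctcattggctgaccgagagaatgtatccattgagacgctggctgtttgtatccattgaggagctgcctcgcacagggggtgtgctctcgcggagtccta
None of the 5 motifs' letters was in this window, which was 57.3% G and C with 19 CpG dinucleotides.

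Dusp7, or MKP-X, is a close relative of Dusp6. Its levels were 2.72, 2.61 and 2.49 in null samples 1, 2 and 3, against 2.25, 3.19 and 3.00 in wild-type samples 1, 2 and 3. The null values lay inside the wild-type range, which wild-type sample 1 widened downward. Means were 2.61 ± 0.12 in null cells and 2.81 ± 0.50 in wild-type cells (SD, n = 3 each), a difference of -0.21 with a standard error of 0.26. It was -0.49 without wild-type sample 1 and -0.02 without wild-type sample 2.

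Dusp9, or MKP-4, is another cytoplasmic phosphatase of ERK and p38, known from placenta and insulin-responsive tissue. It read -0.998, -0.62 and -1.34 in null samples 1, 2 and 3, against -1.93, -0.82 and -0.67 in wild-type samples 1, 2 and 3. The groups overlapped, with wild-type sample 1 the lowest of the 6. Means were -0.99 ± 0.36 in null cells and -1.14 ± 0.69 in wild-type cells (SD, n = 3 each), a difference of 0.16 with a standard error of 0.37. It was -0.24 without wild-type sample 1 and 0.39 without wild-type sample 3. In the cytoplasmic ERK-selective class the groups thus did not overlap for Dusp6 and overlapped for Dusp7 and Dusp9. Of all entries, 19.6% had groups that did not overlap with the null higher and 12% with the null lower. Nothing about the class is read from this.

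Dusp10, or MKP-5, inactivates JNK and p38. Its levels were 0.31, -0.59 and 0.55 in null samples 1, 2 and 3, against 0.82, 0.75 and 0.63 in wild-type samples 1, 2 and 3. All null values lay below all wild-type values, but null sample 3 was only 0.09 units under wild-type sample 3 and null sample 2 was far below the rest. Means were 0.09 ± 0.60 in null cells and 0.74 ± 0.09 in wild-type cells (SD, n = 3 each), a difference of -0.65 with a standard error of 0.30. Without null sample 2 the difference was -0.30, and without null sample 3 it was -0.87.

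Of the 10 genes, 1 had groups that did not overlap and was higher in null cells (Dusp6), where 19.6% of all entries were of this kind. Another 2 had groups that did not overlap and were lower in null cells (Ptpn5 and Dusp10), where 12% of all entries were. The sign of the difference held in all 18 alternatives for Ptpn7, Dusp4, Dusp10 and Dusp6 and in all 17 that gave a value for Ptpn5. Signs turned in 3 of 18 for Ptprr, 5 for Dusp1, 1 for Dusp5, 1 for Dusp7 and 2 for Dusp9. The filters that kept a gene, the probe choices, the moderation and the replicate block left each of the 10 differences at its reported value. These alternatives could not turn a sign, so the counts overstate how far the signs were tried. Scaling to spike-in controls put the median of all entries at 0.30, against 0.03 with the 75th percentile. Each scaling subtracts 1 value per array. The switch between them thus moved these genes by the same amount as that median, and a comparison with it is no check. The differences with spike-in scaling were -6.21 for Ptpn5, -0.59 for Ptpn7, -0.22 for Dusp4, -0.38 for Dusp10 and 1.23 for Dusp6.

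The phosphatase genes did not share 1 order over the null samples. Ptprr, Dusp1 and Dusp10 were lowest in null sample 2 and highest in null sample 3, an order found in 22.4% of all entries. Immediate-early genes, the first to be transcribed after growth factor or stress and also after tissue dissociation, had this order in 19 of 21 tested. Their summed level was 1990, 1557 and 2946 in null samples 1, 2 and 3, against 2293, 2339 and 2345 in wild-type samples 1, 2 and 3, so the null samples lay on both sides of the wild-type samples. Dusp1, which is itself an immediate-early gene, went the same way, while in Dusp4, Dusp6, Dusp7 and Dusp9 null sample 3 was the lowest of the null samples. The part of the dissociation response in these levels was not tested.

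**Figure D2:**
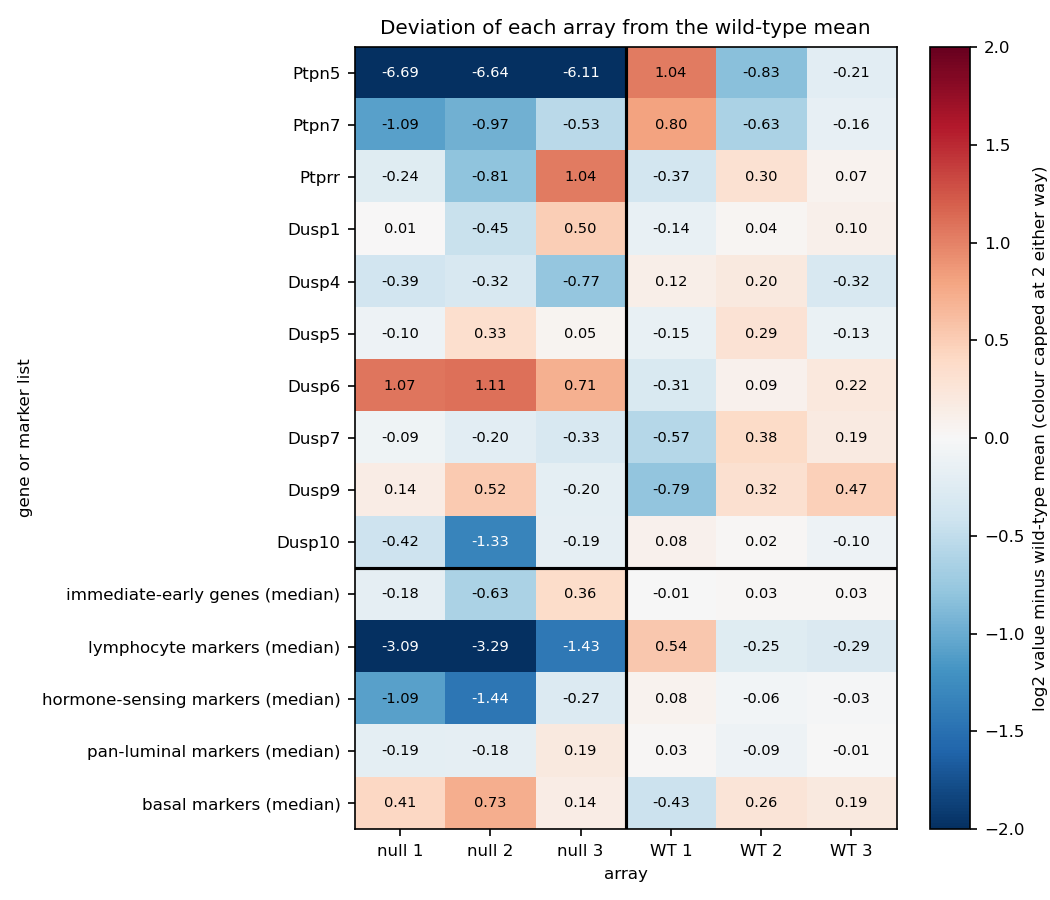
Level on each array minus the wild-type mean (log2) for the 10 phosphatase genes and, below the line, the median over genes of 5 marker lists, with the 3 null samples left and the 3 wild-type (WT) samples right; colours are capped at 2 in either direction. For Dusp6, null samples 1, 2 and 3 lie at 1.07, 1.11 and 0.71, and for lymphocyte markers at -3.09, -3.29 and -1.43.

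Among epithelial lists, hormone-sensing luminal markers had a median difference of -0.89 and were negative in 11 of 12 genes. The progesterone receptor gene Pgr was the 1 marker past the threshold, with a level 3.88-fold lower in the null group (adjusted p = 0.043 by limma). At an unadjusted p of 0.05 in limma, 0 of these markers were higher and 7 lower. Their summed level was 248.8, 285.5 and 438.1 in null samples 1, 2 and 3, against 363.3, 394.2 and 344.6 in wild-type samples 1, 2 and 3. Null sample 3 had the highest sum, but a sum is weighted toward the brightest probes. The median over the list, relative to the wild-type mean, was -1.09, -1.44 and -0.27 in null samples 1, 2 and 3. Markers of basal cells had a median difference of 0.65. In limma 0 of 11 were past the threshold and 3 were higher at an unadjusted p of 0.05. Wild-type sample 1 was lowest of the 6 for Dusp5, Dusp6, Dusp7 and Dusp9, and highest for Ptpn5, Ptpn7 and Dusp10. It was also lowest in summed basal level, at 292.8. The other samples had basal sums of 559.5, 697.2 and 615.8 in null samples 1, 2 and 3, against 469.4 and 489.1 in wild-type samples 2 and 3. Among markers of other cells, the median difference was -0.27 for myeloid, -0.37 for endothelial and -0.45 for fibroblast genes, and 0.33 for luminal progenitor and alveolar genes, with 0 past the threshold in limma in each list. At an unadjusted p of 0.05 the myeloid list had 1 higher and 2 lower, the endothelial 1 lower, the fibroblast 6 lower and the luminal progenitor list 3 higher and 3 lower. The part of lineage proportions in the phosphatase levels was not tested.

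The remaining genes of the pathway were read from 9 lists with 165 genes in all, some shared between lists, and these were tested with limma over all 24609 entries. Of the entries, 0.228% were past an adjusted p of 0.05 and higher in null cells, and 0.337% past it and lower. At an unadjusted p of 0.05 the shares were 13.5% higher and 9.54% lower. In the 9 lists 0 genes were called higher and 2 were called lower, Ptpn22 and Ets1. The medians of the ERK cascade, p38 and JNK, ERK-responsive and immediate-early lists given below changed sign when single samples were left out, and so have no settled direction.

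Both calls were sensitive to single samples. Ptpn22 is a classical tyrosine phosphatase of lymphocytes that restrains antigen receptor signalling. It read -2.17, -2.51 and -1.65 in null samples, against 0.22, -0.29 and -0.02 in wild-type samples, and was 4.24-fold lower in null cells (difference -2.08, standard error 0.26, limma adjusted p = 0.0367). Ets1, a transcription factor phosphorylated by ERK and abundant in lymphocytes, read 2.32, 2.18 and 2.63 in null samples, against 3.46, 3.59 and 3.58 in wild-type samples. It was 2.25-fold lower (difference -1.17, standard error 0.17, limma adjusted p = 0.0479). Leaving out null sample 3 kept both calls and brought the number of pathway genes called lower to 5, and leaving out any other single sample brought it to 0. Over all 18 alternatives the limma adjusted p ran from 0.0106 to 0.128 for Ptpn22 and from 0.00859 to 0.158 for Ets1. The lymphocyte markers given above were lower in the same samples, and their part in both differences was not tested.

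Among the 3 remaining MAP kinase phosphatases, 0 passed the threshold in limma and 1 was lower at an unadjusted p of 0.05. Dusp8, which acts on JNK and p38, differed by -0.39 (standard error 0.15, limma adjusted p = 0.2), Dusp16 by -0.17 and Dusp2 by 0.01. Dusp2 read 4.06, 3.63 and 4.70 in null samples, against 3.96, 4.17 and 4.25 in wild-type samples, which is the order over null samples seen for Dusp1. The small atypical dual-specificity phosphatases, most of which lack a MAP kinase docking domain, were tested for 12 of 16 genes with a median of 0.25, which was 0.10 without null sample 3 and -0.11 with no filter on weak signal. In that list 8 were positive, 0 were called and 3 lay higher at an unadjusted p of 0.05, led by Dusp14 at 0.72 (standard error 0.19, limma adjusted p = 0.105), Dusp28 at 0.49 and Dusp11 at 0.37. The next was Dusp12, at 0.33.

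Other classical tyrosine phosphatases were tested for 29 of 35 genes with a median of -0.14, and 23 were negative. With spike-in scaling the median was 0.13, and leaving out null sample 3 gave -0.03. Ptpn22 was the 1 called, and 5 were lower and 1 higher at an unadjusted p of 0.05. Ptprc, the pan-leukocyte marker CD45, differed by -1.55 (standard error 0.40, limma adjusted p = 0.102), with 0.03, -0.59 and 0.60 in null samples, against 2.27, 1.26 and 1.16 in wild-type samples. Ptprj differed by -0.70 and Ptpn13 by -0.61, neither past the threshold.

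The known targets of Ptpn5 were tested for 5 of 7 genes, with 0 called by limma and 2 lower at an unadjusted p of 0.05. Their median was 0.17, but it was 0.00 without null sample 3, 0.02 with normexp and -0.07 with the authors' deposited table. Ptk2b, which encodes the kinase Pyk2, differed by -1.08 (standard error 0.17, limma adjusted p = 0.0539), and its levels of 0.71, 0.42 and 0.94 in null samples lay below those of 1.86, 1.71 and 1.73 in wild-type samples. Fyn, a Src family kinase, differed by -0.65 (limma adjusted p = 0.134). Mapk14, encoding p38 alpha, differed by 0.19 (limma adjusted p = 0.44). The glutamate receptor subunit genes Grin2b and Gria2 were not well above background on enough arrays to be tested. These are transcript levels, and phosphorylation of the targets was not measured.

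In the ERK cascade, from Ras to ERK, 0 of 20 tested genes were called and the median was -0.01, with 10 positive and 10 negative and, at an unadjusted p of 0.05 in limma, 1 higher and 0 lower. Hras differed by 0.48 (limma adjusted p = 0.155), the adaptor gene Grb2 by -0.29, Mapk7, which encodes ERK5, by -0.31, and Map2k1, which encodes MEK1, by -0.32. In the p38 and JNK cascades, 0 of 26 were called, 2 were higher and 4 lower at an unadjusted p of 0.05 in limma, and the median was -0.03. Map2k6, an upstream kinase of p38, differed by 1.02 (standard error 0.18, limma adjusted p = 0.06), with 0.21, 0.69 and 0.63 in null samples, against -0.61, -0.57 and -0.36 in wild-type samples. Gadd45a differed by -0.60, Mapkapk3 by -0.62 and Gadd45b by -0.95, and none of these passed the threshold.

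Kinases and transcription factors that are MAP kinase substrates had a median of -0.08 over 17 genes, with Ets1 the 1 called. Rps6ka6, an RSK family kinase gene, differed by 1.47 (standard error 0.26, limma adjusted p = 0.0593), Mef2c by -0.97 and Rps6ka3 by -0.41. Genes transcribed in response to ERK had a median of -0.05 over 22 tested genes, with 0 called, 2 higher and 2 lower at an unadjusted p of 0.05. The cyclin D1 gene Ccnd1 differed by 1.08 (standard error 0.21, limma adjusted p = 0.0691), reading 3.75, 4.11 and 3.78 in null samples, against 2.44, 2.91 and 3.05 in wild-type samples. Its groups did not overlap, where 19.6% of all entries had such groups and were higher in null cells. The median difference of all entries was 0.03. The part of ERK activity in these levels was not tested. Il1rl1 differed by -1.12, Egr3 by 0.62 and Lif by -0.75, none past the threshold. The immediate-early list had a median of -0.09, 17 of 21 genes negative, 0 called and 2 lower at an unadjusted p of 0.05 in limma, with Gadd45b again first, Hspa1a at -0.86, Ccn2 at 0.28 and Klf6 at -0.17.

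**Figure D3:**
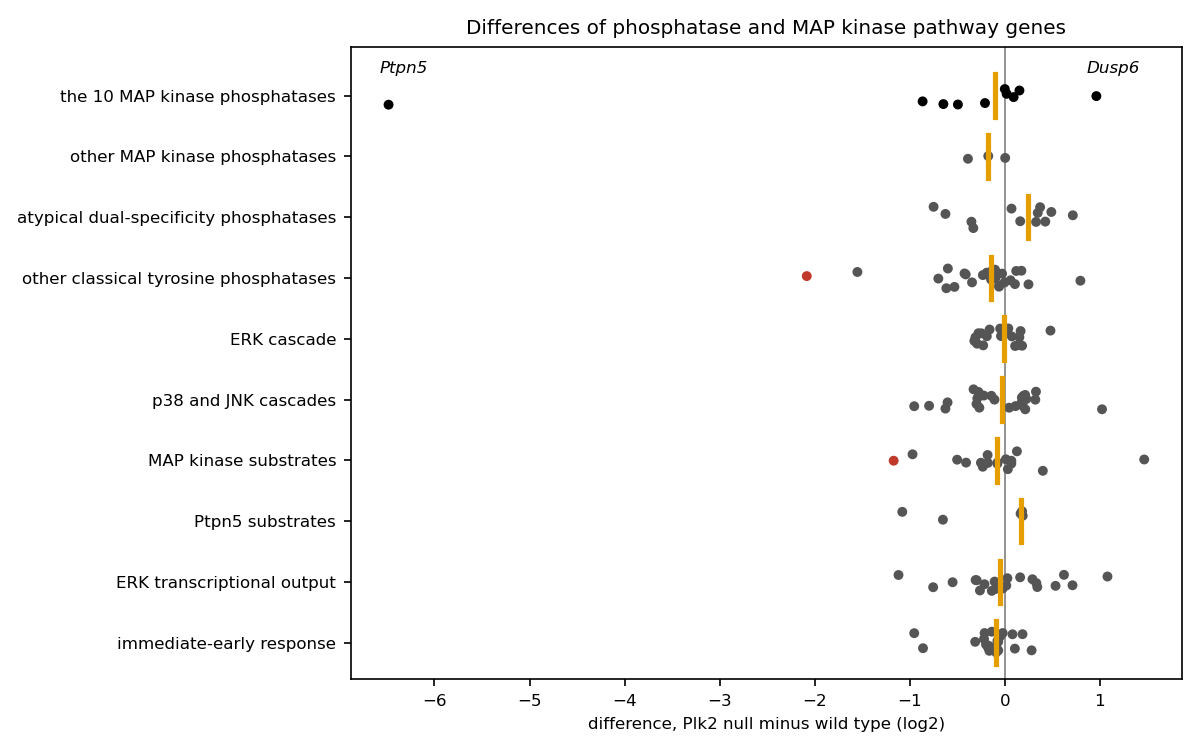
Difference of each gene, Plk2 null minus wild type (log2), in the 10 phosphatases (black) and in 9 lists of related genes (grey; red where the limma adjusted p is under 0.05); orange bars mark each list's median. Ptpn5 lies at -6.48 and Dusp6 at 0.96, and the red points are Ptpn22 at -2.08 and Ets1 at -1.17.

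The genes whose pattern over the 6 arrays was most like that of Ptpn5 were found by the root mean square difference between profiles that were each centred on their own mean. With so wide a difference in Ptpn5, the measure mostly picks genes with a large difference of the same direction. Shared regulation was not tested. With the smallest difference, 0.79 log2 units, came Aoc1, which encodes diamine oxidase. It read -2.09, -3.03 and -2.34 in null samples 1, 2 and 3, against 6.07, 3.81 and 2.48 in wild-type samples 1, 2 and 3. Aoc1 shared with Ptpn5 a highest value in wild-type sample 1, while its lowest wild-type value was in sample 3 and that of Ptpn5 in sample 2. The next were Zc3h12d at 1.15, Sh2d1a, an adaptor gene of T and NK cells, at 1.34, Zfhx3 at 1.39 and Fermt1 at 1.43. These 4 were well above background on every wild-type array and on no null array. They thus passed the filter through the wild-type group alone, and the depth of their difference is not measured.

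**Figure D4:**
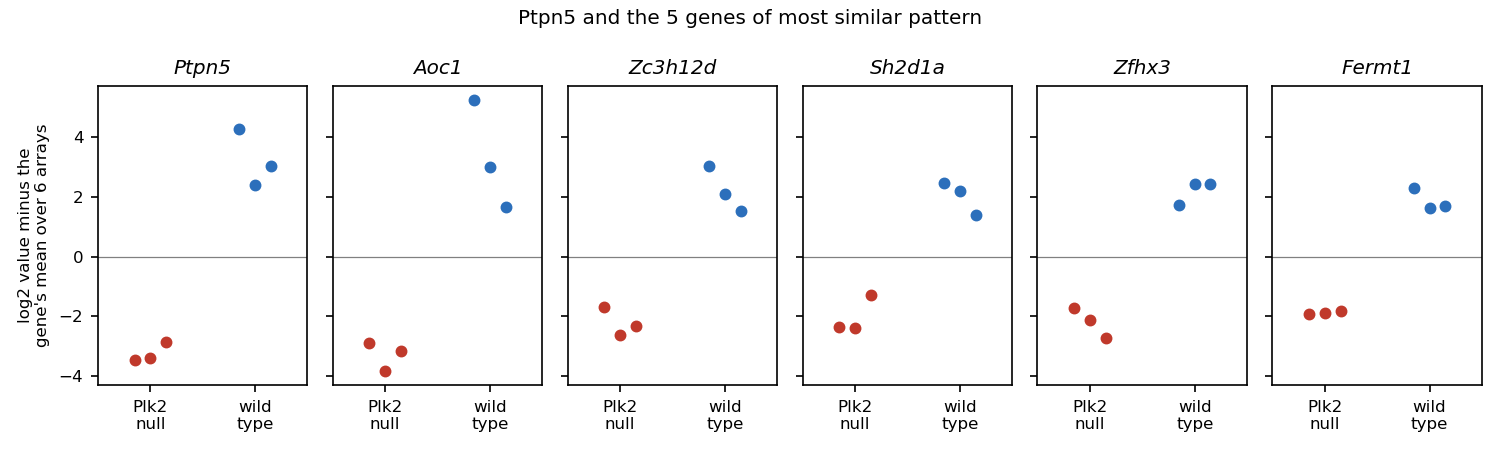
Profiles of Ptpn5 and of the 5 named genes most like it over 6 arrays, as log2 level minus the gene's own mean, for null samples (red, left) and wild-type samples (blue, right) in the order of replicate 1 to 3. Aoc1, at a root mean square difference of 0.79, is the closest, and wild-type sample 1 is the highest point for both.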

How the data were processed

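Per the labels' protocols, Trizol-extracted RNA was amplified before Cy3 labelling. The authors read the arrays with Agilent Feature Extraction 11.0.1.1, per the file headers, and the deposited scanner intensity is background-corrected but not normalized between arrays. A further table deposited by the authors holds intensities whose 6 columns share a common distribution, from which quantile normalization was inferred, an unadjusted p-value, a linear ratio (wild type over null) and a score, which is the fold with a sign. No header or label names the tools behind it.

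Control spots and 1119 outlier spots were left out, and 0 gene spots were saturated. Log2 processed signals were centred on each array's 75th percentile, which was done here, since the deposited scanner files hold no log2 values. Probes that the scanner marked as well above background on 3 or more of the 6 arrays were kept, and the brightest probe stood for a gene. Names came from RefSeq accessions (26582 of 55681 probes matched). The test was limma's (version 3.58.1, lmFit and eBayes, under R 4.3.3), adjusted by Benjamini-Hochberg over 24609 entries. For Plk2, not above background in null samples, the fold is a bound: the null mean was taken after raising each null value to at least the lowest one that any probe well above background had on that array. A 3 against 3 design cannot give an exact permutation p under 0.1, so none is given; arrays carry no counts, and their number limits the precision.

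The phosphatase genes, the gene lists and the markers were chosen with earlier results of these data known. The text names the 10 phosphatases, Plk2, the 4 genes of smallest p in each of 9 pathway lists, a marker past the threshold and the 5 genes most like Ptpn5. A gene that this rule takes is not reported here. In simulated arrays of 24569 entries the fit recovered 30% of genes changed by 1 log2 unit, 74% at 2, 94% at 3 and 92% at 4, with 7 false calls. A total of 18 alternatives were tried: background correction, scaling, filters, probe choice, moderation, weights for arrays, a block for the replicate number, the deposited table's values and each sample left out in turn.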

Additional observations from a re-analysis of the deposited data

How the results depend on the processing

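Numbers of entries past the threshold moved widely. Against 56 higher and 83 lower in null cells, the counts were 722 and 517 with normexp background correction, 176 and 164 with median centring, 256 and 138 with spike-in scaling, 204 and 176 with probes well above background on all 6 arrays, 5 and 26 with no filter, 459 and 388 with trend and robust moderation, 550 and 641 with array weights and 387 and 383 with the deposited table's values. Leaving out each sample in turn gave 1 to 239 higher and 6 to 465 lower, both highest without null sample 3. With the replicate number as a block the counts were 2 and 6. Deviations of same-numbered samples from their group means correlated at -0.12, 0.04 and -0.02, and 0 of 6 samples correlated best with their own number. With so few samples these correlations cannot decide whether same-numbered samples were paired, and the labels state no pairing. Pathway genes called higher numbered 3, 1, 2, 2, 3, 3 and 2 with normexp, median centring, spike-in scaling, all 6 arrays, trend and robust moderation, array weights and the deposited table, against 0 in the reported fit, and 0 to 0 with samples left out. Pathway genes called lower numbered 6 with normexp, 1 with median centring, 1 with spike-in scaling, 0 with no filter, 1 with the mean of a gene's probes, 4 with trend and robust moderation, 5 with array weights, 0 with the replicate block and 6 with the deposited table, against 2, and 0 to 5 with samples left out. The difference of Ptpn5 was -3.82 with normexp, -3.92 with the deposited table's values and -6.90 to -5.96 with samples left out, against -6.48. The replicate block cannot change it, since each number occurs once in each group. The filter on all 6 arrays removes Ptpn5, since 1 null array did not measure it well above background. The cause of these shifts was not tested. Weak signals limit the size of the Ptpn5 difference and of the bounded genes.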
